A study of Mus musculus with 6 samples.

Results

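The genes described here are 8 markers that are widely used to recognise pericytes and other mural cells, the cells that wrap small blood vessels: Pdgfrb, Cspg4, Notch3, Mcam, Des, Kcnj8, Abcc9 and Myh11. They were taken by symbol from a table of 41388 genes, each symbol matched 1 row, and all 8 passed the filter on low counts that left 15186 genes. The table came from primary fibro-adipogenic progenitors of wild-type male mouse muscle, mesenchymal cells that can become fibroblasts or adipocytes, grown in serum with fibroblast growth factor. One group of 3 libraries came from cells given 500 nM prostaglandin E2 (PGE2) once per day for 2 days, and the other 3 from cells given vehicle on the same schedule. The labels do not say how many mice or cultures lie behind the libraries, so p-values cover only the spread between these 6 libraries, which may be technical, and the comparison asks how the markers stood after PGE2.

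Pericytes sit on capillaries inside the vessel's basement membrane and are recruited by platelet-derived growth factor from endothelial cells, which acts on the receptor tyrosine kinase encoded by Pdgfrb. Notch3 is the Notch receptor typical of mural cells, Cspg4 encodes the NG2 proteoglycan and Mcam the adhesion molecule CD146. Kcnj8 and Abcc9 encode the pore and the sulfonylurea receptor of a potassium channel of the ATP-sensitive type. Des encodes the intermediate filament desmin, and Myh11 the myosin heavy chain of smooth muscle. None of these markers is exclusive: fibroblasts also make the PDGF receptor beta, skeletal muscle cells are rich in desmin, and endothelial cells carry CD146.

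Promoters are shown for the genes that fell in the paired comparison, Cspg4, Notch3 and Des, and for Mcam, which holds a complete cyclic AMP response element, a sequence of interest because PGE2 receptors can signal through cyclic AMP. The windows are RefSeq sequence of GRCm38.p6, 250 bases before to 50 after the RefSeq start. Windows were read for 6 of the 8 genes, and not for Pdgfrb and Myh11. The windows shown lie at chr9:56864854-56865153 (plus strand, Cspg4), chr17:32166841-32167140 (minus strand, Notch3), chr1:75360042-75360341 (plus strand, Des) and chr9:44134408-44134707 (plus strand, Mcam). Capitals mark matches on either strand to the E box CANNTG, the RBPJ core TGGGAA, the CRE core TGACG, the full CRE TGACGTCA, which contains the CRE core on both strands, or the CArG box.
Cspg4: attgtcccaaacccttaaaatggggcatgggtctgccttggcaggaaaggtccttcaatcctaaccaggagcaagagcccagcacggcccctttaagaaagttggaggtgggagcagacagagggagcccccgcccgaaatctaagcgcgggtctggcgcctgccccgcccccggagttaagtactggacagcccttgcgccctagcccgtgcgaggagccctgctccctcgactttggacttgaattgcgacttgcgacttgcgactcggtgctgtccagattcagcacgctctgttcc
Notch3: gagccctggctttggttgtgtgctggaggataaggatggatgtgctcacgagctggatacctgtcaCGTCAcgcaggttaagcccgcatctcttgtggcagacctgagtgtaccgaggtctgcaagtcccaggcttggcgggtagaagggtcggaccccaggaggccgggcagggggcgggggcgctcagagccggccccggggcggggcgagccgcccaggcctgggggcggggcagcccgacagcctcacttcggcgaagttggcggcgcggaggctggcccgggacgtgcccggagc
Des: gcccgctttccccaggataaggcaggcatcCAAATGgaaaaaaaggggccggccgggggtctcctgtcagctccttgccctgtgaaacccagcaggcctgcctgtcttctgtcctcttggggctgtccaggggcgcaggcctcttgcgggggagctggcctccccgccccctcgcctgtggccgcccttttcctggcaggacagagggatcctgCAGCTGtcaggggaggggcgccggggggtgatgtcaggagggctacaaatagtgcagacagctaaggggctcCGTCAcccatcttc
Mcam: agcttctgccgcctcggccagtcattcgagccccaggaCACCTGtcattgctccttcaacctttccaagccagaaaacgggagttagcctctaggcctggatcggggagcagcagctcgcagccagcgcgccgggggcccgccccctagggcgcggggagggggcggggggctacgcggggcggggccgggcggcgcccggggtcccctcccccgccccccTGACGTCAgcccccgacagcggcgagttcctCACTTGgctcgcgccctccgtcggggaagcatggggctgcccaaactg

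The Des window held 2 E boxes, at positions -220 and -36 with the RefSeq start as 0, and a CRE core at 36. The Mcam window held the full CRE at position -29 and 2 E boxes, and Notch3 held a CRE core at -184. Among the windows not shown, Kcnj8 held an E box, a CRE core (-87) and an RBPJ core (0). Abcc9 held an E box and an RBPJ core (-221). The Cspg4 window had no match to any of the 5 motifs. No CArG box was found in the 6 windows, which leave out Pdgfrb and Myh11. Among 32851 windows of this length, 72.3% held an E box, 20.8% a CRE core, 25.6% an RBPJ core, 1.79% a full CRE and 1.63% a CArG box. The RefSeq starts are not those of the GENCODE gene positions given below: they lie 71 bases downstream of them for Cspg4 and 189 for Mcam, so that the Mcam CRE falls inside the GENCODE gene, and 38 bases upstream for Notch3 and 37 for Des. A match describes letters, not a bound site.

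Library totals were between 21006044 counts (vehicle 2) and 52730962 counts (PGE2 2). Values below are in CPM, counts divided by library size after scaling by trimmed mean of M values, and 3 counts corresponded to between 0.0582 and 0.142 CPM. The labelled cell type was checked on its markers, and all 8 progenitor genes were detected. Their summed levels were 4183 to 6702 CPM in vehicle and 4169 to 8561 CPM in PGE2 libraries. Col1a1 was the largest part (2013 to 4132 CPM in vehicle) and Dpp4 the smallest (0.7675 to 2.149 CPM in vehicle). Pdgfra, a receptor gene typical of these progenitors, was at 1122 to 1455 CPM in vehicle. Among pericyte markers outside the 8, Higd1b was between 0 and 0.1745 CPM (at most 9 counts), while Rgs5 and Ndufa4l2 were detected in every library. Fewer cells of a type and less RNA per cell cannot be told apart in such bulk samples.

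Per kilobase of longest annotated transcript the 8 genes covered a wide range. In vehicle libraries Pdgfrb stood at 103 ± 5.43 CPM per kilobase (SD, n = 3), next to Pdgfra at 188 ± 24.4. Notch3 (6.14 ± 1.22), Des (5.97 ± 3.58), Cspg4 (3.96 ± 1.62) and Mcam (3.01 ± 1.95) followed on that scale, and each overlapped its neighbour in this order. Abcc9 (0.417 ± 0.0378), Kcnj8 (0.177 ± 0.0278) and Myh11 (0.125 ± 0.0204) came last, and here the vehicle ranges did not overlap. Pdgfrb was thus the abundant member, while both channel genes and the smooth muscle myosin lay below 1 CPM per kilobase. Under PGE2 the order of the means was Pdgfrb, Notch3, Des, Mcam, Cspg4, Abcc9, Kcnj8 and Myh11, with overlapping ranges from Notch3 to Cspg4 and again from Abcc9 to Myh11.

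**Figure D1:**
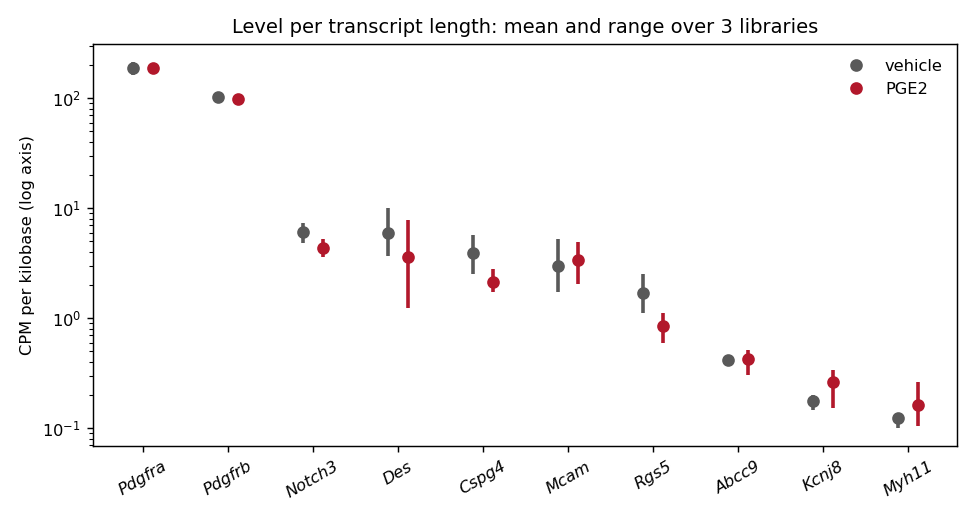
Levels per transcript length of the 8 genes, with Pdgfra and Rgs5 for scale, in CPM per kilobase on a log axis; points are means and lines the range over 3 libraries of vehicle (grey) or PGE2 (red). Pdgfrb is at 103 in vehicle, far above the other members, and Myh11 is lowest at 0.125.

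In these bulk libraries PGE2 was accompanied by lower Cspg4, Notch3 and Des when same-numbered libraries were compared with each other. Pdgfrb, Mcam, Kcnj8, Abcc9 and Myh11 did not pass the test. A pair of edgeR fits across all genes stand behind this, with p-values adjusted by Benjamini-Hochberg and called under 0.05. In the unpaired fit 0 of the 8 genes passed, against 0.342% of all tested genes, and 2 of them, Cspg4 and Notch3, had an unadjusted p under 0.05, as did 3049 of the 15186. Unpaired DESeq2, which gave Kcnj8 and Myh11 no adjusted p, called 1 of the 8, and 932 of the 12828 genes with an adjusted p. The limma-voom fit called 0 of the 8, and 15 of all genes. In the paired fit, which adds the replicate number of the labels as a block, 3 of the 8 fell and 0 rose, where 7.51% of all genes fell and 6.91% rose. The 3 genes were lower in all 3 same-numbered pairs, the pairs on which the paired call rests, so this adds no separate support. Of all genes, 25.5% were lower in all 3 pairs. The unpaired median log2 fold change of the 8 was -0.0024 and that of all tested genes -0.001, and the 2 groups overlapped for each of the 8, where 25.9% of all genes had groups that did not.

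**Figure D2:**
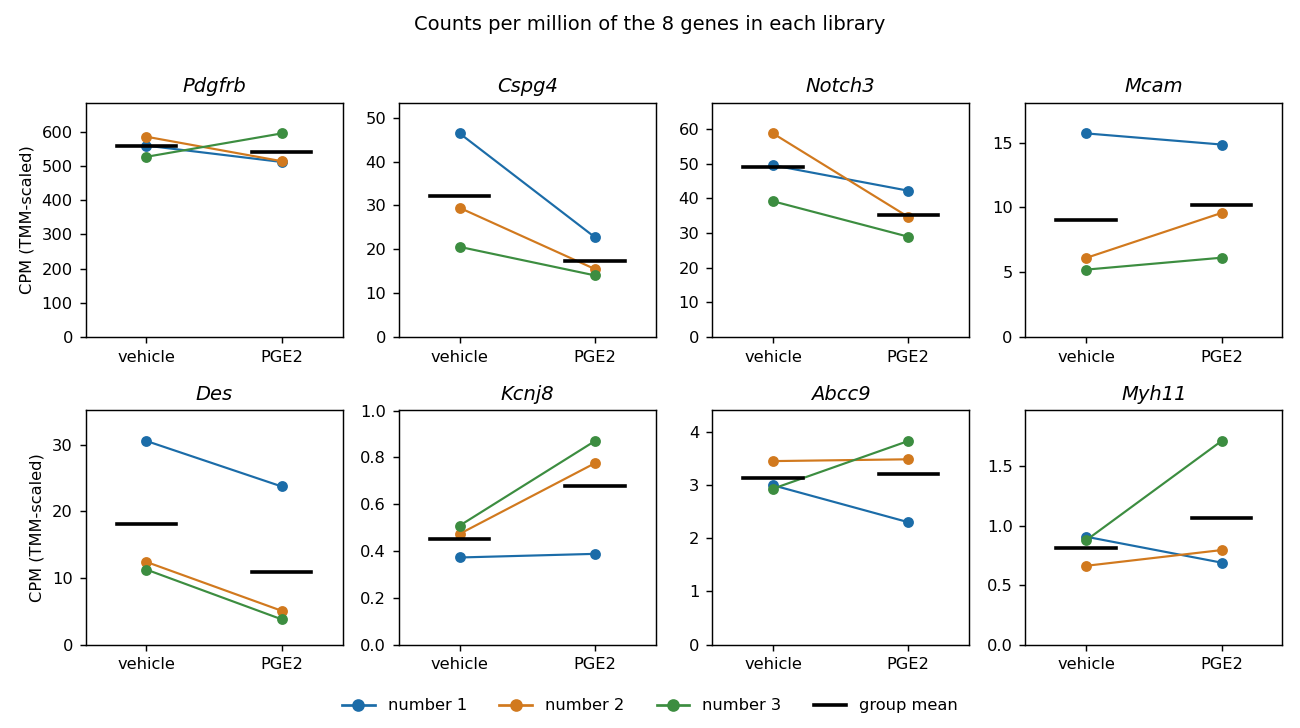
CPM of the 8 genes in each library (linear axes from 0); coloured lines join the vehicle and PGE2 libraries of one replicate number and black bars are group means. Cspg4, Notch3 and Des are lower under PGE2 on all 3 lines, and replicate 1 is high for Des and Mcam in both groups.

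Pdgfrb, the receptor that pericytes use to answer endothelial PDGF, lies on chromosome 18 at 61045150 to 61085061 (plus strand, GRCm38). Values are given in the order of the replicate numbers 1 to 3: it was at 559.9, 586 and 527 CPM in vehicle libraries and at 512, 514 and 596 CPM in PGE2 libraries. The groups overlapped, with the highest value in PGE2 library 3. The log2 fold change was -0.04 ± 0.096 (standard error; edgeR adjusted p = 0.829), and its 95% interval ran from -0.27 to 0.18. Among all tested genes 0.342% passed in the unpaired fit, and 7.51% fell and 6.91% rose in the paired fit. Of 4 tested PDGF partner genes, the ligand genes Pdgfa, Pdgfc and Pdgfd and the sister receptor gene Pdgfra, 0 passed in either fit. Their unpaired log2 fold changes were between -0.13 and 0.15, and Pdgfb, which encodes the ligand that endothelial cells make, was between 0 and 0.233 CPM and was not tested.

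Notch3 (chromosome 17, 32120820 to 32166852, minus strand) was at 49.6, 58.8 and 39.2 CPM in vehicle libraries and at 42.2, 34.7 and 28.9 CPM in PGE2 libraries. Each PGE2 library lay below the vehicle library of its number, but PGE2 library 1 lay above vehicle library 3, so the groups overlapped. Group means were 49.2 ± 9.80 and 35.3 ± 6.67 CPM (SD, n = 3 each). The unpaired log2 fold change was -0.48 ± 0.183 (edgeR adjusted p = 0.217), and the paired one was -0.47 ± 0.1003 (edgeR adjusted p = 0.0129). Notch3 lost its paired call when the replicate 2 libraries were left out (-0.33, edgeR adjusted p = 0.0845), and also with an offset for transcript length (-0.26 ± 0.095, edgeR adjusted p = 0.0931). An antisense gene, Gm17276, shares 6.03% of the exon bases of Notch3, and without a stated strand setting reads there cannot be assigned.

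The Notch pathway passes a signal by direct contact: a ligand on one cell releases the inner part of the receptor on the next, which joins the DNA-binding protein RBPJ to switch on Hes and Hey genes. Of 13 further genes of this pathway 9 were tested, and 0 passed in the unpaired fit. In the paired fit Notch1 (-0.86 ± 0.112), Rbpj (-0.48 ± 0.068) and the ligand gene Jag1 (-0.46 ± 0.130) fell and the target gene Hes1 rose (0.30 ± 0.087), where 7.51% of all genes fell and 6.91% rose. Notch1 was at 35.6, 44.2 and 29.9 CPM in vehicle and at 21.2, 18.9 and 19.5 CPM in PGE2 libraries 1 to 3, without overlap. The list's unpaired median log2 fold change was -0.48, and 5 of the 9 genes lay lower without overlap, as did 12.2% of all tested genes. With the length offset the paired fit had Notch1 and Rbpj lower and Notch4 higher, where 7.37% of all genes fell and 9.58% rose. Neither Jag1 nor Hes1 passed there. The targets Hey1, Heyl and Nrarp were at or below 0.512 CPM and were not tested.

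Cspg4 (chromosome 9, 56865033 to 56899870, plus strand), the gene of the NG2 surface proteoglycan, was at 46.4, 29.4 and 20.5 CPM in vehicle libraries and at 22.7, 15.5 and 14.0 CPM in PGE2 libraries. The PGE2 value was lower within every number, and the groups overlapped because PGE2 library 1 exceeded vehicle library 3. Means were 32.1 ± 13.15 and 17.4 ± 4.66 CPM (SD, n = 3 each). The log2 fold change was -0.88 ± 0.327 unpaired (edgeR adjusted p = 0.211) and -0.84 ± 0.103 paired (edgeR adjusted p = 0.000711). Cspg4 was the 1 member that kept its paired call both with the length offset (-0.63 ± 0.073) and with each replicate number left out (-0.99 to -0.74). The fits with a number left out have fewer libraries to estimate the spread from. Their edgeR adjusted p still fell as low as 3.69e-19, so these calls are a weak check. Cspg4 also passed in the unpaired DESeq2 fit (adjusted p = 0.0387), in which 3.87% of tested genes fell.

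Des (chromosome 1, 75360329 to 75368579, plus strand) varied more between libraries of 1 group than between the group means. It was at 30.6, 12.4 and 11.25 CPM in vehicle libraries and at 23.7, 5.06 and 3.78 CPM in PGE2 libraries. Replicate 1 was highest in both groups, and the PGE2 library was lower within each number. Means were 18.1 ± 10.8 and 10.9 ± 11.2 CPM (SD, n = 3 each), with log2 fold changes of -0.74 ± 0.766 unpaired (edgeR adjusted p = 0.629) and -1.002 ± 0.239 paired (edgeR adjusted p = 0.0452). The within-number differences were -0.36, -1.29 and -1.57 on the log2 scale for numbers 1 to 3. Des lost its paired call without the replicate 3 libraries (-0.76, edgeR adjusted p = 0.374) and with the length offset (-0.998 ± 0.308, edgeR adjusted p = 0.152). The antisense gene Gm15179 shares 5.86% of its exon bases.

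Desmin is also a filament of skeletal muscle cells, so genes of the myogenic lineage were read in the same libraries. All 14 such genes were in the table, Mymk under its older symbol Tmem8c and matched by gene identifier, and 12 were tested. Summed, they reached 302.5, 88.8 and 56.5 CPM under vehicle and 203.9, 24.2 and 27.1 CPM under PGE2, again highest in replicate 1 of both groups. The stem cell markers Pax7 and Myf5 were at most 0.116 CPM. In the paired fit 6 of the 12 fell (Myod1, Myog, Mymk, Myh8, Acta1 and Cdh15) and 0 rose, where 7.51% of all genes fell. With the length offset 4 fell and 0 rose, where 7.37% of all genes fell. The 3 genes whose profile over the 6 libraries was closest to that of Des, among 10261 genes, were Mylpf, Myl4 and Myl1, which encode myosin light chains. Their mean absolute differences from Des on the centred log2 scale were 0.127, 0.158 and 0.191, against a median of 0.911. The part of the myogenic genes in the Des difference was not tested.

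**Figure D3:**
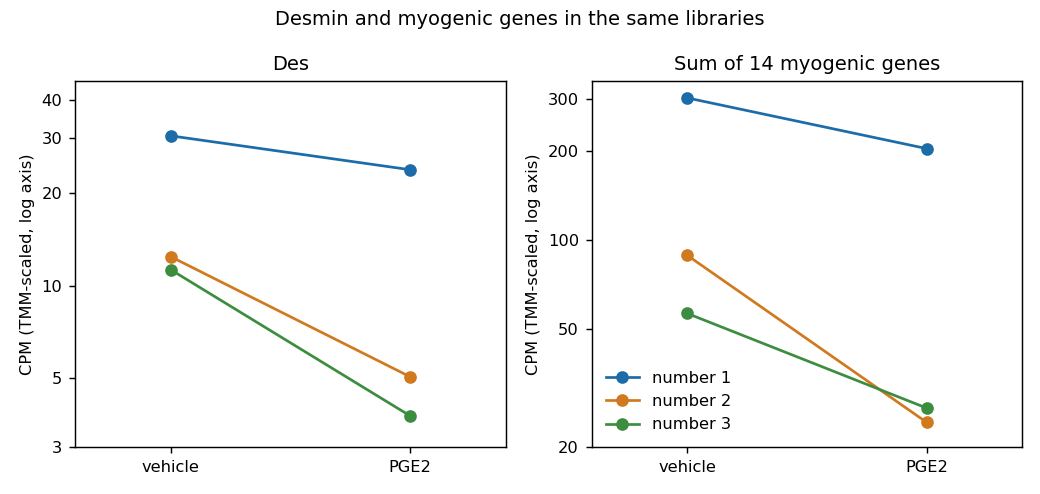
Des (left) and the summed level of 14 myogenic genes (right) in CPM on log axes; lines join the vehicle and PGE2 libraries of one replicate number. Both are highest in replicate 1 and lower under PGE2 within each number, with Des going from 30.6 to 23.7 CPM in replicate 1 and from 11.25 to 3.78 CPM in replicate 3.

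Mcam (chromosome 9, 44134469 to 44142727, plus strand), which encodes the adhesion molecule CD146, was at 15.7, 6.105 and 5.20 CPM in vehicle libraries and at 14.9, 9.58 and 6.12 CPM in PGE2 libraries. Like Des it was highest in replicate 1 of both groups, but the PGE2 library was higher in numbers 2 and 3 and lower in number 1, with log2 differences of -0.08, 0.65 and 0.23 for numbers 1 to 3. The log2 fold change was 0.17 ± 0.503 unpaired (95% interval -1.04 to 1.38) and 0.24 ± 0.140 paired (interval -0.07 to 0.55), with edgeR adjusted p of 0.881 and 0.278. Its sign turned in the unpaired fit when vehicle library 2, vehicle library 3 or PGE2 library 1 was left out.

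Endothelial genes were read beside Mcam, since endothelial cells also carry CD146. Of 8 such genes 5 were tested, with summed levels of 21.6 to 47.6 CPM in vehicle and 19.3 to 33.8 CPM in PGE2 libraries. The angiopoietin receptor gene Tek, at 15.98 to 39.65 CPM in vehicle, made up most of these sums. Tek was the 1 endothelial gene that passed in the paired fit, where it fell (-0.42 ± 0.106), and again with the length offset. Of all genes 7.51% fell in the paired fit, and 7.37% with the length offset. Among defining markers, the cadherin gene Cdh5 (0.299 to 2.89 CPM) and the VEGF receptor gene Kdr (2.31 to 4.945 CPM) were detected in every library, Pecam1 was at most 0.254 CPM, and Cldn5 was at 0 throughout. Vehicle library 1 had the highest Mcam and the lowest endothelial sum of its group, while Cdh5 was highest there in vehicle library 2 (2.887 CPM). The part of endothelial cells in the Mcam level was not tested.

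Kcnj8 (142564837 to 142571614) and Abcc9 (142587862 to 142702315) are neighbours on the minus strand of chromosome 6, 16247 bases apart with 0 annotated genes between them. Kcnj8, which encodes the pore subunit, was at 0.372, 0.473 and 0.508 CPM in vehicle libraries and at 0.388, 0.775 and 0.870 CPM in PGE2 libraries. It was higher under PGE2 within each number, as were 26.6% of all tested genes, and the groups overlapped through PGE2 library 1. These values rest on 10 to 40 counts per library, and the 10 counts of vehicle library 2 have a 95% exact Poisson interval of 4.8 to 18.4, for counting error only. The log2 fold change was 0.58 ± 0.372 unpaired (edgeR adjusted p = 0.417) and 0.54 ± 0.318 paired (edgeR adjusted p = 0.282), with a paired 95% interval of -0.17 to 1.24.

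Abcc9, which encodes the regulatory sulfonylurea receptor, was at 3.0, 3.455 and 2.935 CPM in vehicle libraries and at 2.30, 3.49 and 3.83 CPM in PGE2 libraries. The PGE2 libraries held both the lowest and the highest value, and within numbers the log2 differences were -0.38, 0.01 and 0.39. The log2 fold change was 0.04 ± 0.221 unpaired (95% interval -0.48 to 0.55) and 0.01 ± 0.180 paired, with edgeR adjusted p of 0.939 and 0.973. The genes of the channel type known from pancreatic beta cells, Kcnj11 and Abcc8, were at most 0.0930 CPM. The inward rectifier genes Kcnj2 and Kcnj15 did not pass in the unpaired or paired fit (paired 0.61 ± 0.191 and 0.36 ± 0.160). They passed as higher once pairing and length offset were combined (0.72 and 0.48), where 9.58% of all genes rose.

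Myh11 (chromosome 16, 14194535 to 14291372, minus strand), the defining myosin of smooth muscle, was at 0.907, 0.6625 and 0.878 CPM in vehicle libraries and at 0.689, 0.795 and 1.71 CPM in PGE2 libraries. PGE2 library 3, with 63 counts, stood above the rest, and the within-number differences were -0.40, 0.26 and 0.96 on the log2 scale. The log2 fold change was 0.35 ± 0.389 unpaired (edgeR adjusted p = 0.654) and 0.31 ± 0.306 paired (edgeR adjusted p = 0.522), and without PGE2 library 3 the unpaired value was -0.15.

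Other contractile genes of smooth muscle, which myofibroblasts also make, were read beside Myh11. Of 12 in the list 10 were tested and 0 passed unpaired, while 7 rose and 1 fell in the paired fit, where 6.91% of all genes rose and 7.51% fell. The groups did not overlap for 7 of the 10, all higher, as for 13.7% of all genes. Smooth muscle actin Acta2 was at 654, 407 and 540.3 CPM in vehicle and at 808, 891 and 1166 CPM in PGE2 libraries 1 to 3 (paired 0.85 ± 0.157). Lmod1, whose protein nucleates actin filaments, was at 5.58, 4.73 and 4.71 CPM in vehicle and at 7.95, 9.325 and 13.5 CPM in PGE2 libraries (paired 1.002 ± 0.175). The other genes that rose in the paired fit were Cnn1 (1.04), Tagln (0.91), Myl9 (1.11), Actg2 (1.09) and Srf (0.26), and Synpo2, which encodes an actin-binding protein, fell (-0.63 ± 0.109). With the length offset Lmod1 and Srf passed as higher and Synpo2 as lower, where 9.58% of all genes rose and 7.37% fell. The other 5 kept their sign there without passing, with log2 fold changes of 0.77 (Acta2), 0.79 (Tagln), 0.98 (Cnn1), 0.96 (Myl9) and 0.95 (Actg2). The smooth muscle coactivator gene Myocd was at most 0.0816 CPM and Pln was at 0 in every library. Whether Myh11 differed from these genes in its response was not tested.

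Further pericyte genes went both ways. Of 12 in the list 11 were tested and 0 passed unpaired. In the paired fit Ndufa4l2 (1.52 ± 0.102), which encodes a mitochondrial protein, and the vitronectin gene Vtn (1.35 ± 0.338) rose. The G protein regulator gene Rgs5 (-0.95 ± 0.231) and the transcription factor genes Tbx18 (-0.32 ± 0.078) and Ebf1 (-0.37 ± 0.088) fell, against the same shares of all genes. Ndufa4l2 was at 9.37, 18.2 and 15.1 CPM in vehicle and at 31.9, 52.9 and 36.6 CPM in PGE2 libraries 1 to 3, without overlap. Rgs5 was at 5.79, 10.5 and 4.53 CPM in vehicle and at 4.63, 3.315 and 2.45 CPM in PGE2 libraries 1 to 3, and vehicle library 2 stood highest. With the length offset Rgs5 did not pass (-0.90, edgeR adjusted p = 0.0552), and the other 4 did, where 9.58% of all genes rose and 7.37% fell.

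**Figure D4:**
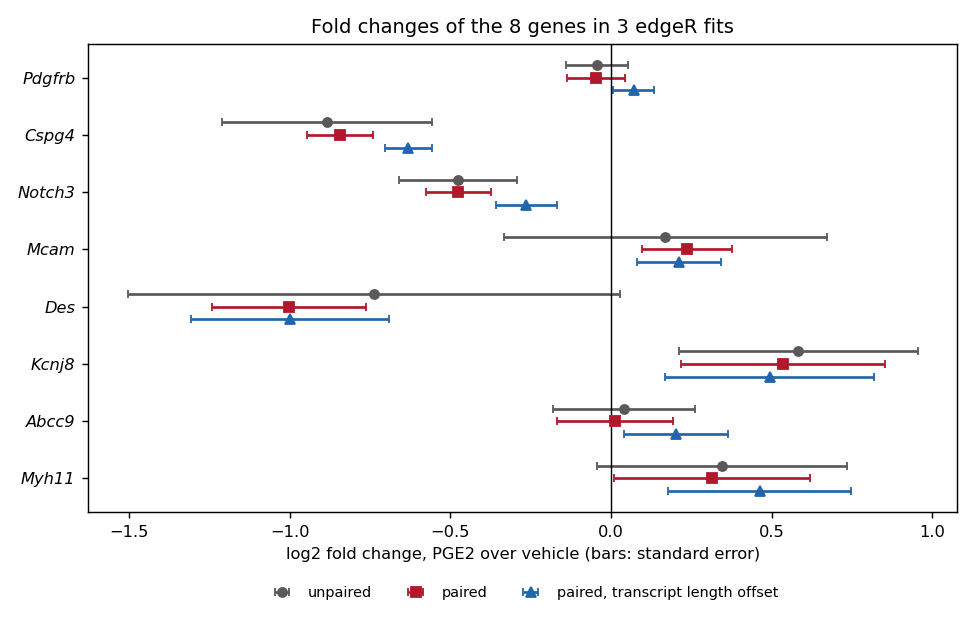
Log2 fold changes (PGE2 over vehicle) of the 8 genes with standard errors in the unpaired fit (grey circles), the paired fit (red squares) and the paired fit with a transcript length offset (blue triangles). The error of Des goes from 0.766 unpaired to 0.239 paired, and Cspg4 and Notch3 lie nearer to 0 with the length offset.

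Transcript length moved with the fold changes. Genes are not independent replicates, but over the 15098 with a length the rank correlation of unpaired log2 fold change with longest transcript length was -0.408. Cspg4 (8121 bases), Notch3 (8016), Abcc9 (7499), Myh11 (6549) and Pdgfrb (5423) are at least as long as 82.5% of those genes, and Des (3028), Mcam (2989) and Kcnj8 (2548) are shorter than the median of 3200 bases. Genes within 0.25 log2 units of the length of Cspg4 had a median paired log2 fold change of -0.21, against -0.84 for Cspg4 itself. Those near the length of Notch3 had a median of -0.20, against -0.47 for Notch3. For Des the genes of like length had a median of 0.0079, against -1.002. With the length offset the paired fit had 1 of the 8 lower and 0 higher, where 7.37% of all genes fell and 9.58% rose, and Pdgfrb changed sign to 0.07 without passing.

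**Figure D5:**
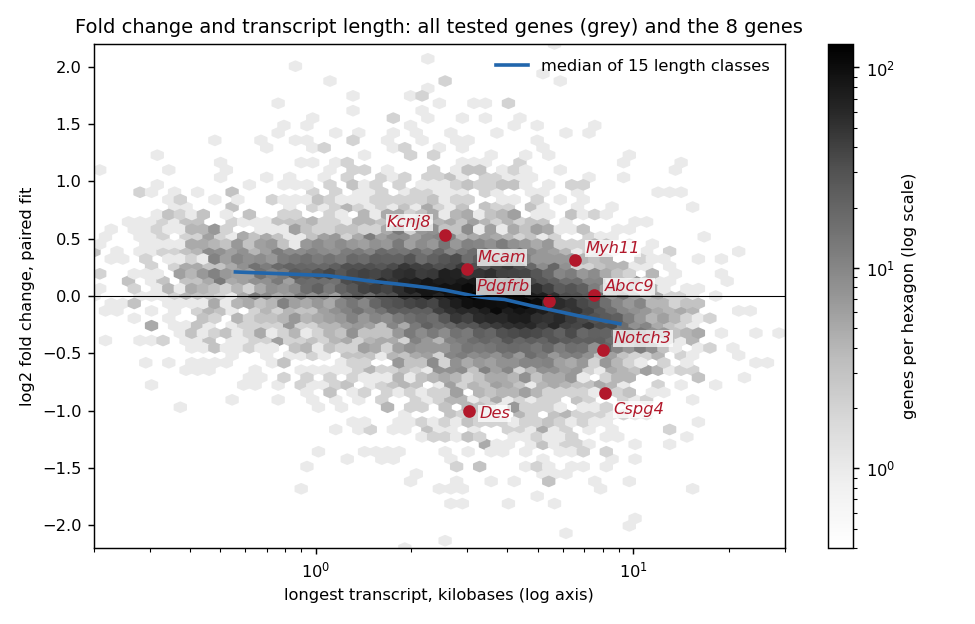
Paired log2 fold change against longest transcript length (log axis) for tested genes with a length (grey hexagons, 102 of 15098 outside the axes), the median of 15 length classes (blue) and the 8 genes (red). Cspg4 at -0.84 and Des at -1.002 lie below the line, as does Notch3 at -0.47, and the other 5 genes lie above it.

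The 8 genes had several distinct profiles over the libraries. On the centred log2 scale the closest pair was Pdgfrb and Abcc9, with a mean absolute difference of 0.15, then Kcnj8 and Abcc9 with 0.224 and Cspg4 and Notch3 with 0.252. The most distant were Des and Kcnj8, at 1.24. The single closest genes outside the set were Narg2 for Pdgfrb (0.0132), Nefm for Cspg4 (0.0455), Dbp for Notch3 (0.0389), Gpr35 for Mcam (0.101) and Mdga1 for Abcc9 (0.0485). The medians over all compared genes were 0.14, 0.489, 0.301, 0.589 and 0.216 in the same order. Kcnj8 was no closer to Abcc9 than the median gene, but that median covers genes of at least 5 CPM. Kcnj8 rests on 10 to 40 counts per library, so counting error is part of its distance. The distance of Pdgfrb and Abcc9 lay above the median of Pdgfrb and below that of Abcc9. That of Cspg4 and Notch3 lay below both of their medians. A flat profile such as that of Pdgfrb has many close neighbours, and these distances over 6 libraries are descriptions.

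Markers of further cell types were read beside the 8. Over all genes 7.51% fell and 6.91% rose in the paired fit. Of 5 Schwann and glial genes 3 were tested and 2, S100b and Cdh19, fell in the paired fit, with summed levels of 6.91 to 8.09 CPM in vehicle and 4.24 to 5.10 CPM in PGE2 libraries, and Sox10 was at 0 throughout. NG2 is also made by glial precursor cells, and the part of these genes in the Cspg4 difference was not tested. Of 5 macrophage and leukocyte genes 3 were tested, and the paired fit had Csf1r and Cd14 higher. Their sums were 8.52 to 9.11 CPM in vehicle and 11.5 to 12.25 CPM in PGE2 libraries, with Ptprc at 0 throughout and Adgre1, listed under its older symbol Emr1, at 0 in all but 1 library, which held 1 count. Of the 8 progenitor genes Ly6a (0.62) and Pi16 (0.98) rose and Cd34 (-0.59) and Lum (-0.66) fell in the paired fit, while Pdgfra stood at 0.01 ± 0.091.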

How the data were processed

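Polyadenylated RNA of 6 libraries of mouse fibro-adipogenic progenitors, 3 vehicle and 3 PGE2, was sequenced in paired-end mode on an Illumina NovaSeq, per the labels. The authors deposited raw counts per gene. The submitters' processing notes name mm10 as build, while aligner, counter and strand setting were not given in the sources used here. A chi-square per degree of freedom between 20 and 100 separated any pair of libraries within a group, so each was counted as its own sample. This value cannot tell libraries of separate mice or cultures from libraries of the same culture.

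Counts were tested with edgeR version 4.0.16 (R version 4.3.3, robust quasi-likelihood, filterByExpr, trimmed mean of M values) over all genes, without and with the replicate number as a block (the paired fit). Standard errors were derived from the F statistic. The fits were also run on simulated data with 200 changed genes, and no result of that run is used here.

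Same-numbered libraries were treated as pairs by a rule that every correlation of their deviations from group means exceed 0.1. These were 0.621, 0.169 and 0.422. The labels do not state a pairing. Vehicle library 3 and PGE2 library 2 correlated at 0.252 and vehicle library 2 and PGE2 library 3 at 0.145, so matching these the other way round would meet the rule as well; that matching was not fitted.

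Genes absent by symbol were matched by gene identifier. The members and the 10 context lists were chosen with earlier results of these data known. Named genes were all members, up to 4 genes per list past the threshold or otherwise the most abundant, and the closest profiles among genes of at least 5 CPM (offset 0.1 CPM); further genes that passed, and list genes at or near 0, were named after their values were seen. The full CRE was added to the motifs after the windows were read.

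Lengths and positions are from GENCODE M21 (GRCm38), which held 97.5% of identifiers and gave a length for 99.4% of tested genes. The length offset was a lowess trend per library with a span of 0.3. Alternatives were other scalings and filters, DESeq2 version 1.42.0, limma-voom of limma version 3.58.1, and left-out libraries or pairs.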

Additional observations from a re-analysis of the deposited data

How the results depend on the processing

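Of the 8 genes, 0 passed in the unpaired edgeR fit, and also under other scalings and filters, limma-voom and the length offset. With 1 library left out the count was 0 to 0, but without vehicle 2, vehicle 3, PGE2 2 or PGE2 3 the fit called 0 of all genes, so there it says nothing about these 8. DESeq2 called 1, the replicate block 3, and the replicate block with the length offset 1. From the paired count of 3, the fit with no replicate block gave 0 and the length offset 1, while RLE scaling and DESeq2 with the block gave 3, and leaving out a replicate pair gave 2 to 3. Fits with a pair left out have little spread to estimate from, so their calls are a weak check. Over all genes the unpaired 52 became 285 with no filter, 932 with DESeq2, 15 with limma-voom, 2189 with the block, 15 with the length offset and 2559 with both, and 0 to 120 with 1 library left out. Counts in the context lists, 0 unpaired in each, became with the block and then with block and length offset 4 and 3 (Notch), 5 and 4 (other pericyte genes), 8 and 3 (smooth muscle), 0 and 2 (channel genes), 1 and 1 (endothelial), 6 and 4 (myogenic), 2 and 2 (Schwann), 2 and 1 (macrophage) and 4 and 6 (progenitor), and stayed 0 for the PDGF genes.

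Signs turned for 4 genes, none of which passed. Pdgfrb (-0.04) was at 0.0725 with the length offset, at 0.0707 with block and length offset, and between -0.167 and 0.0242 in the paired fit with a pair left out. Mcam (0.17) ranged from -0.21 to 0.85 with 1 library left out. Abcc9 (0.04) was at -0.0078 with library totals, and ranged from -0.10 to 0.23 with 1 library left out and from -0.20 to 0.21 with a pair left out. Myh11 (0.35) ranged from -0.15 to 0.57 and from -0.12 to 0.69. Cspg4, Notch3, Des and Kcnj8 kept their sign under each of these settings; with 1 library left out of the unpaired fit they ranged from -1.13 to -0.52, from -0.62 to -0.33, from -2.03 (without PGE2 library 1) to -0.12 (without vehicle library 1), and from 0.38 to 0.87. The low counts of Kcnj8 and Myh11 limit what could be seen in them. The causes were not tested.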
